A study of Mus musculus with 4 samples.

Results

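Glycogen is a branched store of glucose, and 9 genes for its priming, synthesis and breakdown were examined in the lenses of newborn mice with and without Hsf4. The genes were Gyg, Gys1, Gbe1, Pygb, Pygl, Pygm, Ugp2, Pgm1 and Pgm2. Their members were taken as every probe set that the platform annotation assigns to exactly 1 of these genes, matched by Entrez gene number. All 9 genes, of 18193 with such a probe set, were found, with 16 of the 45101 probe sets on the array. The set was chosen from the pathway of Gyg, and Gyg was itself selected on its difference between knockout and wild type in these same arrays. The knockout against wild-type values of all 16 probe sets are therefore given as a description, with no p-value, and counts of them stand beside the same counts over all probe sets.

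The series holds 4 arrays of lens total RNA from mice at postnatal day 0.5, on the 129S3 strain background and labelled male. Of these, 2 came from wild-type animals and 2 from animals labelled HSF4 knockout, and each genotype has a number 1 and a number 2. Hsf4 encodes a heat shock transcription factor of the lens, and the series asks which lens RNAs differ in its absence. The labels give neither the way the allele was made nor whether lenses were pooled, nor do they say that the arrays came from separate animals, so spreads and p-values measure only the variation between these arrays, which may be technical.

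Glycogenin, the product of Gyg, attaches the first glucose residues to itself and so provides the primer of each glycogen particle. Glucose 6-phosphate is turned into glucose 1-phosphate by phosphoglucomutase, then into UDP-glucose by the pyrophosphorylase Ugp2. Glycogen synthase extends the chains and the branching enzyme Gbe1 adds branch points. Glycogen phosphorylase, with isoforms named for brain (Pygb), liver (Pygl) and muscle (Pygm), releases glucose 1-phosphate again. The lens meets much of its energy need by glycolysis.

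Because Hsf4 belongs to a family of factors that bind heat shock elements, the stretch of 250 bases before the annotated start of each gene was searched for the letters of such elements. Sequences are those of RefSeq on build GRCm38.p6, which holds 10 promoters for the 9 genes. The motif was taken as 2 inverted units, GAANNTTC or TTCNNGAA. Each of these reads the same on both strands, and both can overlap. The Gyg stretch at chr3:20155117-20155366 on the minus strand is shown because the largest log2 change of the set came from that gene, and it held neither form.
Gyg: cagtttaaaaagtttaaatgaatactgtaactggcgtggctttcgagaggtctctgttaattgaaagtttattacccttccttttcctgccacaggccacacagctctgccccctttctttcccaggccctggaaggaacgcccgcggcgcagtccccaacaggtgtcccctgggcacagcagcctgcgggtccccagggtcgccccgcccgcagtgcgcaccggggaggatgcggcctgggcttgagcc
The only match in the set was in the Pgm1 stretch at chr4:99929201-99929450 on the plus strand, 221 bases before the start, and it is printed with the motif in capitals.
Pgm1: tttagaccagcTTCTGGAAtgtatacgtga
Thus 1 of the 10 promoters of the set held the motif, against 12.8% of all 32851 promoters in the table. A run of 3 alternating units was found in 0 of the 10 and in 0.466% of all promoters. A match is a string of letters in this window, and the arrays hold no measurement of binding.

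Values are probe set intensities, which the authors deposited without scaling between arrays and which were quantile normalized for this comparison. The deposited median intensity ranged from 6.58 on knockout array 2 to 21.4 on wild-type array 1. A log2 change is the knockout mean minus the wild-type mean of log2(normalized intensity + 16), a scale that understates the change of dim probe sets. In names of probe sets, _at stands for a unique target, _a_at for transcripts of the same gene, _s_at for a target that several transcripts share, and _x_at for possible cross-hybridisation. Knockout array 2 had the lowest median, and its deposited 3' to 5' signal ratio for Gapdh control probe sets was 1.05, against 0.856 to 0.902 on the others. The control probe set for the 5' region of 18S ribosomal RNA was bright on both arrays numbered 2, at 6898 in wild type and 7309 in knockout, against 1.52 and 14.3 on those numbered 1. That for the 3' region measured 349 and 3228 on the arrays numbered 2 and at most 12.8 on those numbered 1. The probe set of Hsf4 measured 505 and 138 on the wild-type arrays and 1212 and 413 on the knockout arrays, higher rather than lower in the libraries labelled knockout. The sources used here do not give its place relative to the deleted part, so it checks nothing, and all directions refer to the labels. Xist, which is transcribed in females, measured 605 (wild type) and 260 (knockout) on the arrays numbered 1, against 58.1 and 9.01 on those numbered 2, although all samples are labelled male. Of 10 lens markers, 9 had a probe set, and all 9 were above the filter on dim probe sets. Their summed intensity was 51594 and 49115 in wild type and 50109 and 49730 in knockout, a sum carried by the brightest crystallins. Quantile normalization gives the brightest ranks the same values on every array, as for Cryaa at 8511.5 on both wild-type arrays. The sum could therefore hardly differ, and nothing about lens content is read from it. Among the 9, Bfsp1, a protein of the beaded filament of lens fibres, measured 5220 and 3785 in wild type and 2186 and 2060 in knockout (log2 -1.06, limma Benjamini-Hochberg adjusted p = 0.434). Its partner Bfsp2 measured 180 and 268 in wild type and 60.1 and 2907 in knockout.

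Gyg had the highest values of the knockout against wild-type difference in the set. In wild type the _s_at probe set measured 525 and 558 on arrays 1 and 2, and in knockout it measured 1204 and 1078. Both knockout arrays lay far above both wild-type arrays, and the spread within each group was small beside the gap. The group means were 542 ± 23.0 and 1141 ± 88.5 (SD, n = 2 each), a ratio of 2.11. The log2 change was 1.05 with a standard error (SE) of 0.25. Taken between arrays of the same number it was 1.17 (number 1) and 0.93 (number 2).

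The other Gyg probe set, the _at one, gave a less uniform picture. It measured 437 and 244 on wild-type arrays 1 and 2 and 960 and 325 on knockout arrays 1 and 2. Each knockout array was above the wild-type array of its number, but knockout array 2 lay below wild-type array 1, so the groups overlapped. The means were 340 ± 136 and 642 ± 449 (SD, n = 2 each), and the log2 change was 0.75 (SE 0.48), with 1.11 within number 1 and 0.39 within number 2. Without knockout array 1 the change of this probe set was -0.01, whereas that of the _s_at probe set was 0.97. The same omission thus left no difference in one probe set of the gene and a difference of similar size in the other.

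The size of the Gyg difference also depended on the scaling. As deposited, the _s_at probe set measured 796 in wild type and 1585 in knockout on the arrays numbered 1, and 423 and 399 on those numbered 2. The knockout to wild-type ratio was then 1.99 within number 1 and 0.942 within number 2, on a pair of arrays whose trimmed mean intensities were 45.6 and 21.4. For the _at probe set the deposited ratios were 1.92 and 0.607. With values as deposited the log2 changes were 0.45 and 0.14, while the median over all tested probe sets was -0.42. With median centring they were 0.62 and 0.31, with that median at -0.25. With trimmed mean scaling they were 1.06 and 0.72, close to those under quantile normalization, with that median at 0.01. Relative to the median of all probe sets, the changes of the 2 Gyg probe sets were 0.87 and 0.56 with values as deposited. Median centring gives the same relative values by construction, because it subtracts a constant from each array. The relative changes were 1.05 and 0.71 with trimmed mean scaling and 1.06 and 0.76 under the quantile normalization.

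**Figure D1:**
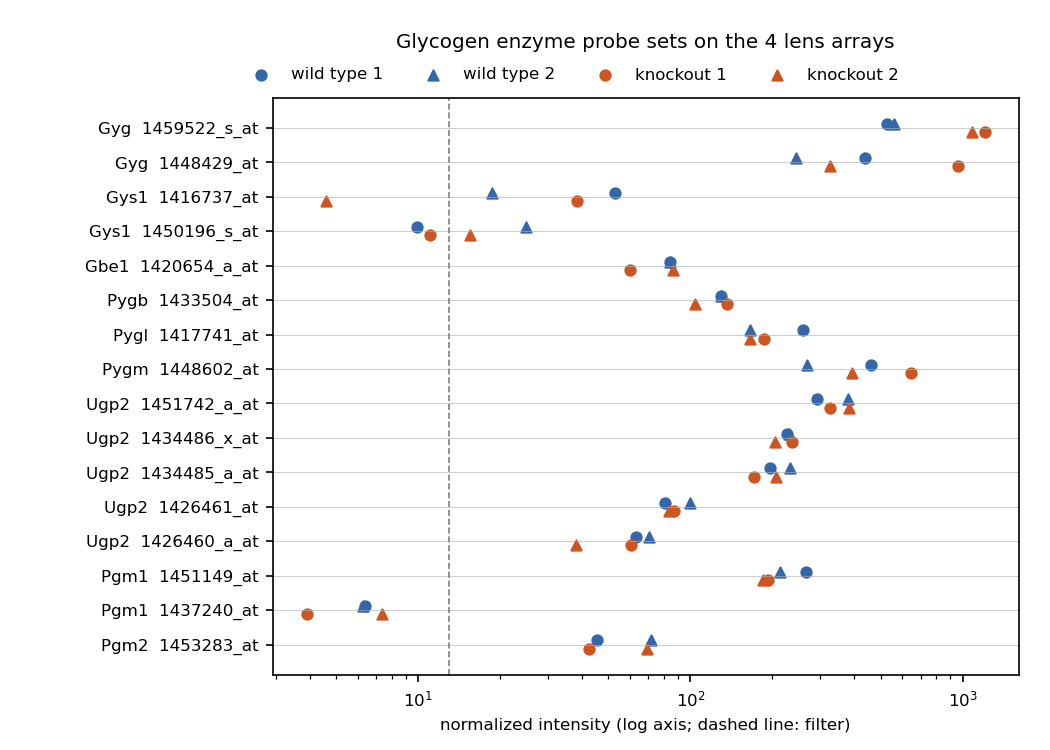
Normalized intensity (log axis) of each of the 16 probe sets on the 4 arrays, with wild type in blue, knockout in orange, circles for number 1 and triangles for number 2; the dashed line is the intensity of the filter on dim probe sets. Both knockout points of the Gyg _s_at probe set, at 1204 and 1078, lie to the right of both wild-type points, at 525 and 558, while most other probe sets overlap.

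**Figure D2:**
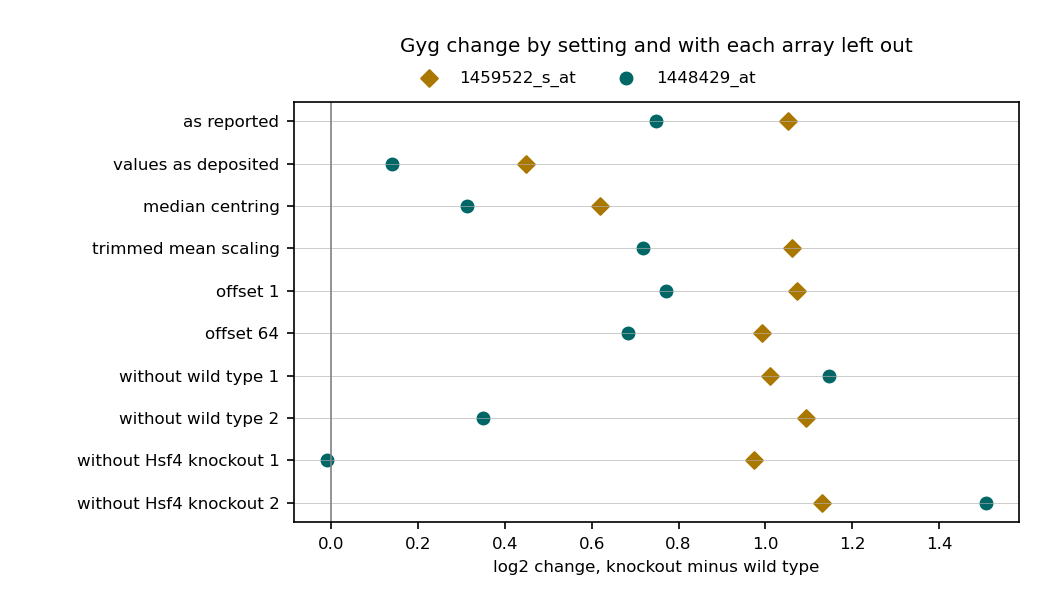
Log2 change of the 2 Gyg probe sets (knockout minus wild type) as reported, under other scalings and offsets, and with each array left out. The diamonds of the _s_at probe set lie between 0.45 and 1.13, and the circle of the _at probe set is at -0.01 without knockout array 1.

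Glycogen synthase was represented by Gys1, the isoform of muscle and most other tissues. Its _at probe set measured 52.9 and 18.7 on the wild-type arrays and 38.2 and 4.61 on the knockout arrays. Both genotypes were lower on the arrays numbered 2, and the groups overlapped. The log2 change was -0.55 (SE 0.50), with -0.34 and -0.75 within the numbers. Leaving out an array gave 0.15 (knockout array 2) or -1.25 (knockout array 1). Either omission left a single array for the knockout, and the 4.61 on knockout array 2 was below the filter intensity. The _s_at probe set of the gene measured 9.87 and 25.0 in wild type and 11.0 and 15.5 in knockout, close to the filter, with a log2 change of -0.16 (SE 0.36). It ran in opposite directions within the numbers, 0.06 and -0.38.

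Gbe1, the branching enzyme, measured 84.4 and 83.8 on the wild-type arrays and 59.9 and 86.6 on the knockout arrays. The wild-type arrays were nearly equal and lay between the knockout arrays. Its log2 change was -0.18 (SE 0.31), with -0.40 within number 1 and 0.04 within number 2.

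Ugp2, which supplies UDP-glucose, was measured by 5 probe sets, with log2 changes from -0.36 to 0.08 and SEs from 0.29 to 0.32. The one with the highest mean measured 291 and 380 in wild type and 326 and 384 in knockout, so the arrays of a number resembled each other more than those of a genotype. The lowest change, -0.36 (SE 0.32), was that of an _a_at probe set, which measured 62.9 and 70.5 in wild type and 60.6 and 38.2 in knockout. There the groups did not overlap, yet the gap within number 1 was -0.04 and that within number 2 was -0.67. The remaining 3 Ugp2 probe sets had -0.17, -0.07 and -0.05, with overlapping groups.

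Pgm1 and Pgm2 encode phosphoglucomutases, and the symbols were exchanged in older annotation, so both were assigned by gene number. Pgm1, by the probe set above the filter, measured 265 and 214 in wild type and 192 and 185 in knockout. Both knockout arrays were below both wild-type arrays, with means of 239 ± 36.1 and 189 ± 4.94 (SD, n = 2 each). The log2 change was -0.31 (SE 0.30), with -0.43 and -0.19 within the numbers. The second Pgm1 probe set was the only one of the 16 below the filter, at 3.91 to 7.36 on the 4 arrays, and it was not tested. Pgm2 measured 45.5 and 71.9 in wild type and 42.4 and 69.3 in knockout, a log2 change of -0.06 (SE 0.34), with arrays that differed by number and hardly by genotype.

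The phosphorylase isoforms gave values of both signs. Pygm, known as the muscle isoform, measured 462 and 268 on the wild-type arrays and 645 and 391 on the knockout arrays. Each knockout array was above the wild-type array of the same number by a similar factor, 1.40 within number 1 and 1.46 within number 2, although knockout array 2 lay below wild-type array 1. The log2 change was 0.50 (SE 0.36), and 0.47 and 0.52 within the numbers. It was -0.11 with values as deposited, 0.06 with median centring and 0.48 with trimmed mean scaling. Relative to the median of all probe sets it was 0.31 with values as deposited, and by construction the same with median centring. With trimmed mean scaling the relative change was 0.46.

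Markers of striated muscle, the tissue for which Pygm is named, were looked at as well. Of 14 listed markers 11 were above the filter, and all 11 had negative changes, as had 11519 of all 22519 tested probe sets. Limma with Benjamini-Hochberg adjustment called 3 of them at an adjusted p of 0.05 (Actc1, Acta1 and Myl1), against 0.0345% of all 11595 genes. Actc1 (7.84 and 2.18) and Tnnt3 (1.97 and 0.756) were among those below the filter intensity in knockout. Such markers passed the filter through their wild-type arrays, which favours negative changes in this count. The median log2 change of the 11 was -2.24, but that of Casq1 was -0.04 with overlapping groups. Below the filter, Des had -1.17, Myog -0.06 and Ryr1 0.26. The summed intensity of the 14 was 2969 and 1450 in wild type and 247 and 243 in knockout, with Des, Myog and Ryr1 below the filter and no marker at 0. Fibroblast markers had negative changes in 7 of 7, none called, with a median of -1.48. Among them Lum, at 10.9 and 2.10 in knockout, also passed the filter through its wild-type arrays. The summed intensities of the 7 were 1171 and 1816 in wild type and 359 and 674 in knockout. In RNA of whole tissue, fewer cells of a type and less RNA per cell cannot be told apart, and the part of these cells in the values of the glycogen genes was not tested.

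Pygb, the brain isoform, measured 130 and 129 in wild type and 137 and 104 in knockout, with the wild-type arrays between those of the knockout. Its log2 change was -0.10 (SE 0.31). Pygl, the liver isoform, measured 258 and 166 in wild type and 187 and 165 in knockout, with a log2 change of -0.22 (SE 0.32) that was -0.44 within number 1 and -0.01 within number 2. Alb and Apoa1, markers of liver, were below the filter, and Ttr, also a product of other epithelia, measured 72.0 and 305 in wild type and 427 and 169 in knockout.

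**Figure D3:**
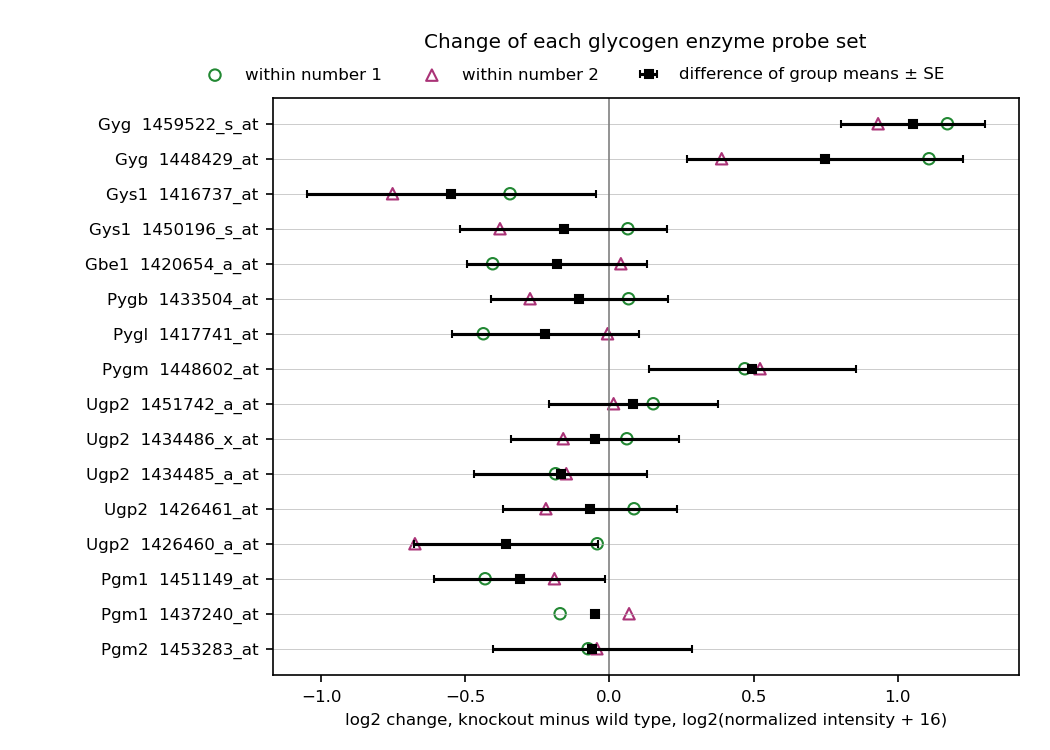
Log2 change of each of the 16 probe sets, knockout minus wild type; black squares are differences of group means with bars of 1 SE (none for the probe set below the filter), green circles the difference within number 1 and purple triangles that within number 2. Gyg and Pygm have both numbers to the right of 0, from 0.39 to 1.17, and so has 1 Ugp2 probe set, at 0.15 and 0.01. Of the 15 probe sets above the filter, 11 have a negative difference of means.

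Across the 15 probe sets above the filter, 4 had a positive change and 11 a negative one, with a median of -0.10 against -0.01 over all 22519 probe sets tested. The positive ones were both Gyg probe sets, Pygm and 1 of the 5 of Ugp2. Relative to the median of all probe sets the split was also 4 and 11 under values as deposited, median centring and trimmed mean scaling. Here median centring repeats the values as deposited by construction, so it is no separate result. The members of that split differed: under values as deposited and median centring this Ugp2 probe set lay below the median (-0.12) and the Gys1 _s_at probe set above it (0.15). Without subtracting the median, 2 were positive and 13 negative as deposited, and 3 and 12 with median centring. The direction was the same within both numbers for 10 of the 15, higher for 4 and lower for 6. Over all 22519 tested probe sets it was higher within both numbers for 5822 and lower for 6162. None of the 15 was called by limma at an adjusted p of 0.05, where 0.0178% of all tested probe sets were called. Groups did not overlap in the higher direction for 1 of the 15, against 12.6% of all probe sets, and in the lower direction for 2, against 14.4%. The members were chosen through this comparison, so nothing is read from these counts.

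Other genes of glycogen metabolism gave no call. The choice of the set did not use them, but their list was made with earlier results of these data known. Of 43 listed genes 41 had a probe set and 32 were above the filter, taking for each gene the probe set of highest mean. Limma called 0 of the 32 at an adjusted p of 0.05, where 0.0345% of all 11595 genes were called, and 2 had an unadjusted p under 0.05, as did 272 of the 11595. Of the 32, 11 had positive and 21 negative log2 changes, with a median of -0.08 against -0.01 over all genes. Groups did not overlap in the higher direction for 2 and in the lower direction for 8, against 12.7% and 14.3% of all genes. The adjusted p was 1 for each of the 32.

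Kinases and phosphatase subunits that regulate synthase and phosphorylase had 13 genes above the filter, 5 with positive and 8 with negative changes and a median of -0.01. Ppp1r3c, which targets protein phosphatase to glycogen, measured 134 and 113 in wild type and 52.1 and 83.4 in knockout, a log2 change of -0.76 (SE 0.32; limma unadjusted p = 0.0398, adjusted p = 1). Both knockout arrays were below both wild-type arrays, with -1.14 within number 1 and -0.38 within number 2. Ppp1r3f, another targeting subunit, measured 37.7 and 38.4 in wild type and 28.8 and 5.03 in knockout (log2 -0.82, SE 0.40).

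AMP-activated protein kinase, an energy sensor whose beta subunits bind glycogen, gave changes of both signs among its subunits. Prkab2, a beta subunit, measured 227 and 226 in wild type and 148 and 122 in knockout, a log2 change of -0.69 (SE 0.29; limma unadjusted p = 0.0412, adjusted p = 1). Prkag1, a gamma subunit, measured 106 and 156 in wild type and 161 and 225 in knockout, a log2 change of 0.51 (SE 0.33). In both genes the groups did not overlap. Prkaa1, a catalytic subunit, measured 34.6 and 24.2 in wild type and 52.6 and 1.98 in knockout, so the groups overlapped and the change of -0.36 (SE 0.55) was 0.44 within number 1 and -1.16 within number 2. In fits without knockout array 1, the log2 changes were -1.36 for Ppp1r3f and -1.33 for Prkaa1. In these fits knockout array 2 stood alone for its genotype and was assumed to vary like the wild-type arrays.

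Phosphorylase kinase, which activates phosphorylase, had 4 of its 5 genes above the filter. Phka1 measured 37.9 and 43.5 in wild type and 27.8 and 23.6 in knockout (log2 -0.44, SE 0.31), and Phkb measured 263 and 296 in wild type and 237 and 231 in knockout (-0.24, SE 0.28). In both the knockout arrays were the lower ones. The catalytic Phkg2 had 0.21 (SE 0.30) and Phka2 had 0.01 (SE 0.33), with overlapping groups.

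For breakdown in the lysosome, Gaa, the acid alpha-glucosidase, had a log2 change of -0.07 (SE 0.36). Stbd1, a glycogen-binding protein linked to that route, measured 24.9 and 27.4 in wild type and 13.8 and 6.19 in knockout, a change of -0.71 (SE 0.35) without overlap of the groups. The genes for laforin and malin, Epm2a and Nhlrc1, which guard against abnormal glycogen, had -0.14 (SE 0.34) and 0.00 (SE 0.33). Gys2, the liver synthase, was below the filter on all 4 arrays, at 0.362 to 4.78.

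Among genes of sugar phosphates and glucose entry, G6pc3, a glucose 6-phosphatase, measured 84.0 and 81.8 in wild type and 110 and 138 in knockout, a log2 change of 0.49 (SE 0.30). Pgm2l1, which makes glucose 1,6-bisphosphate, the cofactor of phosphoglucomutase, had -0.32 (SE 0.30), and its groups did not overlap either. Hk1, a hexokinase, had -0.42 (SE 0.43), and Pgm5, a relative of phosphoglucomutase without that main activity, had 0.28 (SE 0.31). Both had overlapping groups. Slc2a1, the glucose transporter of many barrier epithelia, measured 2455 and 2016 in wild type and 1915 and 2067 in knockout (log2 -0.16, SE 0.21).

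**Figure D4:**
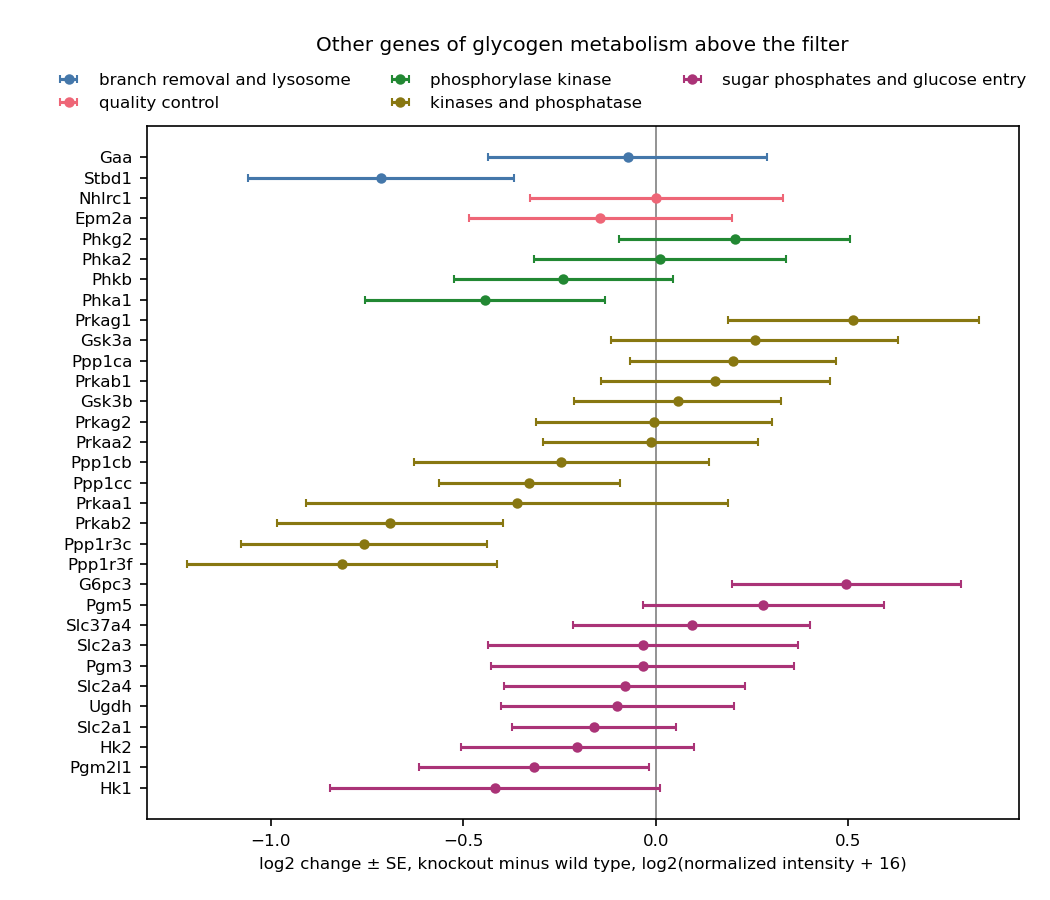
Log2 change with bars of 1 SE for the 32 other genes of glycogen metabolism above the filter, coloured by role and ordered by change within each role. The changes run from -0.82 for Ppp1r3f to 0.51 for Prkag1, and 21 of the 32 lie below 0.

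The 5 genes whose pattern over the 4 arrays was closest to that of the Gyg _s_at probe set were Glis1, Tbc1d22a, Cars, Plekhs1 and Shisa4. Likeness was the root mean square distance between log2 values, each taken relative to the wild-type mean, and it was 0.08 to 0.12 for these 5 of 11594 genes. In all, 31 genes lay within a distance of 0.25, while the 2 probe sets of Gyg itself were 0.61 apart. The distance is on the scale with the offset of 16, which draws dim genes together with bright ones of a smaller ratio. Glis1 measured 6.95 and 8.77 in wild type, below the filter intensity, and 30.5 and 31.3 in knockout, so it passed the filter through its knockout arrays.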

How the data were processed

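RNA of 4 newborn mouse lens samples was measured on 1-colour Affymetrix arrays with biotin-labelled target, per the labels' protocols. The deposited values are intensities on a linear scale, 1 per probe set and array; the sources used here name no software for them. These intensities, which the authors deposited, were not scaled between arrays, so they were quantile normalized (limma 3.58.1, R 4.3.3), 16 was added and log2 taken. Of 45037 probe sets that are no controls, 34945 had 1 gene symbol in the platform annotation, 932 several and 9160 none; of the 34945, 34741 took their current symbol through the gene number. Listed genes without such a probe set were not analysed here. Probe sets with a mean log2 value of at least 4.86, the median, were tested (22519, or 11595 genes by their probe set with the highest mean) with limma's linear model, a variance trend on intensity and Benjamini-Hochberg adjustment at 0.05. The fit was tested on simulated data with 200 changed probe sets. The number of arrays limits the precision.

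The genes and lists were chosen with earlier results of these data known. The rule for named genes took every probe set of the 9 genes, Hsf4, up to 4 genes with the lowest p in each role of the other glycogen genes, and the 5 genes most like Gyg; Gys2, Slc2a1, Prkaa1 and Xist, and the markers named beside the results, were named after their values were seen. Alternatives were other scalings, offsets of 1 and 64, dropping the filter or raising it to the 70th percentile, no variance trend, the replicate number as a block, the mean of a gene's probe sets, and leaving out each array. Neural retina, erythroid and macrophage markers above the filter had median log2 changes of -0.81 (5 genes), 0.90 (3 genes) and -0.16 (3 genes). The retina median was 0.05 within number 1 and -1.38 within number 2.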

Additional observations from a re-analysis of the deposited data

Results flagged for a closer look

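No test used the control probe sets. After normalization, those for the 3' and middle regions of 18S ribosomal RNA measured 3228 and 3636 on knockout array 2. In wild type they measured at most 349 and 432 (array 2) and at least 12.8 and 14.3 (array 1). On knockout array 1 they measured 10.6 and 16.7. The probe set for the 5' region divided the arrays by number, with 6898 (wild type) and 7309 (knockout) on those numbered 2 against 1.52 and 14.3 on the arrays numbered 1. The part of this in the values of the glycogen genes on knockout array 2 was not tested. Without that array the log2 changes of Gyg were 1.13 for the _s_at probe set and 1.51 for the _at probe set. Both values then rest on knockout array 1 alone for its genotype, and Gyg was chosen on this comparison.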

How the results depend on the processing

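The log2 change of the Gyg _s_at probe set was 1.05 as reported, 0.45 with values as deposited, 0.62 with median centring and 1.06 with trimmed mean scaling. It was 1.17 and 0.93 within numbers 1 and 2, and without single arrays it ranged from 0.97 to 1.13. That of the Gyg _at probe set ranged from -0.01 to 1.51 without single arrays. Of the other 14 probe sets, 12 moved by more than 1 SD between replicates with values as deposited, 8 with median centring and 0 with trimmed mean scaling. The number of all probe sets called was 4 as reported, 0 with values as deposited and with no filter, 15 with median centring, and 4 to 566 without single arrays, with 566 without knockout array 1 and 92 without knockout array 2. For the other glycogen genes it was 0 as reported and 0 to 2 without single arrays, and 0 under the remaining alternatives. Nothing in the labels ties a replicate number to a common litter or day. Deviations from the group means correlated at 0.43 between same-numbered arrays. With the replicate number as a block, 317 probe sets were called, among them both of Gyg, which is no test because Gyg was chosen on these values, and 0 of the other glycogen genes. This fit leaves 1 residual degree of freedom. The cause of these differences was not tested.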
